A study of Mus musculus with 18 samples.

Results

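Interferon response genes are the genes that cells switch on when interferon binds its receptor, and 39 of them were followed here through mice that lack Pcgf6. The 39 were named genes, taken from the 52636 genes in the deposited files by symbol, and every one of them was found. Pcgf6 belongs to PRC1.6, a polycomb complex known for silencing germ cell genes outside the gonads, and the question was whether the release of germ cell genes in the knockout comes with an interferon response. Poly-A RNA came from liver, brain and testis of Pcgf6 knockout (KO) and wild-type (WT) adult male C57BL/6 mice aged 8 weeks, with 3 libraries per genotype and tissue and 18 in all. The titles number the KO libraries 4 to 6 and the WT libraries 1 to 3 in every tissue, and these numbers are used as names. The labels describe neither the knockout allele nor how many animals the libraries came from, so p-values measure the spread between these libraries.

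Interferons are secreted when sensors such as Ddx58 (RIG-I) and Ifih1 (MDA5) detect viral RNA, or when other sensors detect DNA in the cytosol. Type I interferon then acts through a receptor and kinases on Stat2, which with Irf9 is part of the factor ISGF3, and ISGF3 binds the interferon-stimulated response element (ISRE) in the promoters of genes such as Ifit1, Isg15 and Mx1. Type II interferon acts at a different element, the GAS site, and is a strong inducer of the guanylate-binding proteins and of antigen processing genes. Double-stranded RNA from reactivated transposons is a known trigger of the same sensors, and liver macrophages and brain microglia are known to respond strongly to interferon.

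Promoter windows were compared for short motifs between interferon response genes, germ cell genes and all genes. RefSeq windows on GRCm38.p6, 300 bases long with 250 bases before and 50 after each annotated start, were found for 30 of the 39, and were searched on both strands. These 30 genes had 34 windows in all, and a gene counts if any of its windows holds the motif. The ISRE core, spelled TTTC, then 2 bases of any kind, then TTTC, was present in the windows of 18 of the 30, or 60%, against 3.99% of the 27025 genes that had a window. It was present in 0 of 13 germ cell genes on the list used here, which was chosen with earlier results of these data known. All 5 interferon-inducible GTPases and 3 of 4 IFIT genes had it, and none of the 3 antigen processing genes did. The GAS core, spelled TTCNNNGAA, was in the windows of 7 of 30 genes (23.3%) against 9.55% of all genes. In Bst2 it overlaps an ISRE core and shares bases with it, and in Igtp it lies beside an ISRE core. The E-box, spelled CACGTG, which PRC1.6 is known to bind through Max and Mga, was in those of 0 of 30 genes, against 8.09% of all genes and 8 of 13 germ cell genes (61.5%). The E2F motif was in those of 1 of 30 genes, against 2.52% of all genes and 3 of 13 germ cell genes. A match is a description of the letters in the window, not evidence of binding.

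The stretches below come from the 4 genes with the highest WT liver level among those with an ISRE core, and from Mael, the germ cell gene followed beside them, which was chosen after its values were seen. Capitals mark the ISRE core on either strand, or the E-box in Mael, and each is read 5′ to 3′ on the strand of its gene.
Bst2 (chr8:71537557-71537632, minus strand): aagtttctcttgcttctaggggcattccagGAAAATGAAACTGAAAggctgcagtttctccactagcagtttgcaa
Stat2 (chr10:128270248-128270315, plus strand): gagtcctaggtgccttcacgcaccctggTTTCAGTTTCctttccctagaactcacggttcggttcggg
Igtp (chr11:58199492-58199561, plus strand): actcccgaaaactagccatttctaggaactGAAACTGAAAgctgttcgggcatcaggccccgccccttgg
Isg15 (chr4:156200845-156200926, minus strand): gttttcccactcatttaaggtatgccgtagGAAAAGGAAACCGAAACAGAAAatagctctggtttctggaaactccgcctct
Mael (chr1:166238932-166238994, minus strand): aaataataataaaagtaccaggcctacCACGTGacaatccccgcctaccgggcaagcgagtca
In Isg15, 3 overlapping cores make up the capitals, starting between 78 and 66 bases before the start site, and in Bst2 there are 2. Of 29 ISRE cores in the member windows, 24 began within the 160 bases before the start. The Mael window holds no ISRE core, and its E-box begins 223 bases before the start.

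**Figure D1:**
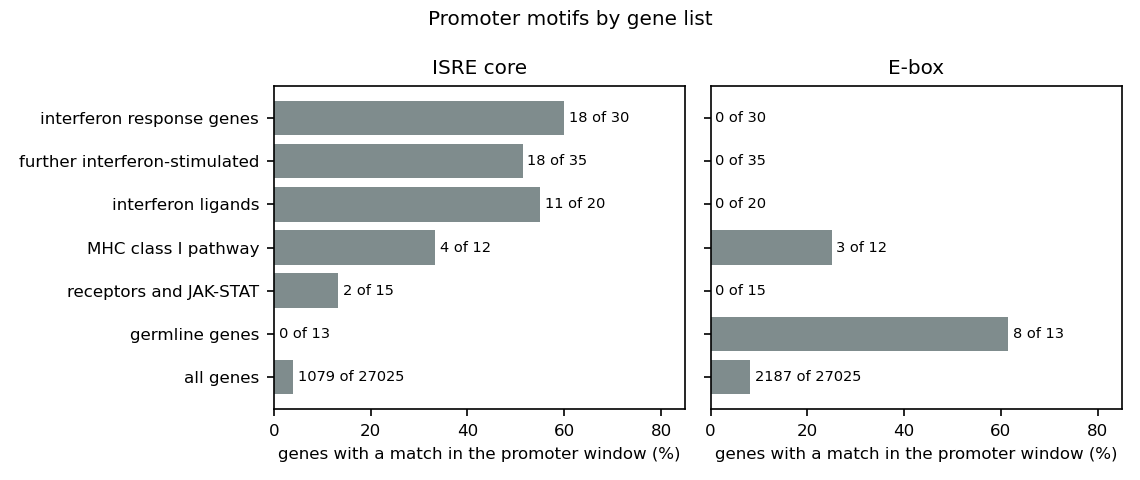
Share of genes in each list whose promoter window holds the ISRE core (left) or the E-box (right), in percent of the genes with a RefSeq window; the counts stand beside the bars. The ISRE core was in 18 of 30 interferon response genes and 0 of 13 germ cell genes, and the E-box in 0 of 30 and 8 of 13. The lists were chosen with earlier results of these data known.

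Depth was 18990130 to 23529098 reads per library, recovered from the deposited FPKM (fragments per kilobase, divided by a size of the library). The tissues matched their labels by marker genes: hepatocyte markers summed to 56900 to 67400 FPKM in liver and to at most 14.7 in brain and 13.2 in testis, neuron markers to 646 to 709 in brain, and male germ cell markers to 14800 to 24400 in testis. Pcgf6 was lower in KO than in WT in every library, at 1.92 ± 0.65 against 4.91 ± 0.79 FPKM in liver, 3.98 ± 0.60 against 5.02 ± 0.38 in brain and 9.93 ± 0.59 against 20.9 ± 1.25 in testis (mean ± SD, n = 3 each), although none of these passed adjustment. Genes with 10 or more reads in 3 or more libraries of a tissue were tested, and the words rose and fell are used at an adjusted p under 0.05 in limma on log2(FPKM + 0.1), adjusted by Benjamini and Hochberg over all genes tested. Fold changes are KO minus WT on that log2 scale, with the limma standard error (SE); the added 0.1 understates changes of genes with low levels.

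Bst2 (ENSMUSG00000046718) lies on mm10 chromosome 8 from 71534255 to 71537456, Stat2 (ENSMUSG00000040033) on chromosome 10 from 128270559 to 128292849, and Dhx58 (ENSMUSG00000017830) on chromosome 11 from 100694884 to 100704271. The resting level of the 39 genes depended on the tissue. In WT liver the median of their mean levels was 7.42 FPKM, with 37 of 39 above 1 FPKM, while in WT brain it was 0.560 FPKM with 10 above 1, and in WT testis 0.438 FPKM with 5 above 1. Bst2, also called tetherin, which holds budding virus particles at the cell surface, averaged 6.46 ± 3.17 FPKM in WT testis, 3.59 ± 0.77 in WT brain and 292 ± 24.5 in WT liver (SD, n = 3 each). Ifi27, a protein strongly induced by type I interferon, averaged 13.8 ± 4.40 FPKM in WT testis, 12.4 ± 0.86 in WT brain and 105 ± 20.8 in WT liver, and ranked second in WT liver and first in the other WT tissues. Liver was the highest WT tissue for 36 of the 39 genes on the FPKM scale. The median fold of liver over brain was 11.6 and of liver over testis 11.3. These folds depended on the scaling: with the FPKM of each library rescaled to 1 common total (TPM) they were 4.97 and 6.81, and liver was highest for 32 genes.

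In limma over the 9 WT libraries, brain was lower than liver for 37 of the 39 genes (27.8% of 23580 genes) and higher for Cmpk2 alone (40.3%), while Ifit2 did not pass. Testis was lower than liver for 38 (28.8%) and higher for Dhx58 (56.7%). With TPM, 29 genes were lower in brain than in liver and 34 lower in testis than in liver. Dhx58 (LGP2), an RNA helicase that tunes RIG-I and MDA5 signalling, measured 11.3, 11.9 and 10.1 FPKM in the WT testis libraries, against 5.51, 6.47 and 6.93 in WT liver and 0.661, 0.383 and 0.347 in WT brain. Cmpk2, a mitochondrial nucleotide kinase, measured 5.94, 5.40 and 5.95 FPKM in WT brain, against 3.04, 4.32 and 3.998 in WT liver. Its neighbour and partner in the antiviral response, Rsad2 (viperin), averaged 0.281 ± 0.037 FPKM in WT brain and 4.84 ± 0.99 in WT liver. Between testis and brain, 7 genes were higher in testis (48.9% of all genes), among them Bst2, Mx1, Zbp1 and Oasl1, 13 were lower (34.9%, and 21 genes with TPM) and 19 did not pass. The deposited FPKM carries a scaling that differs between tissues: the library total over the size behind the FPKM lay between 0.823 and 0.969 in testis libraries, 0.806 and 0.835 in brain libraries, and 1.44 and 1.52 in liver libraries. In bulk tissue, fewer cells of a type and less RNA per cell cannot be told apart.

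**Figure D2:**
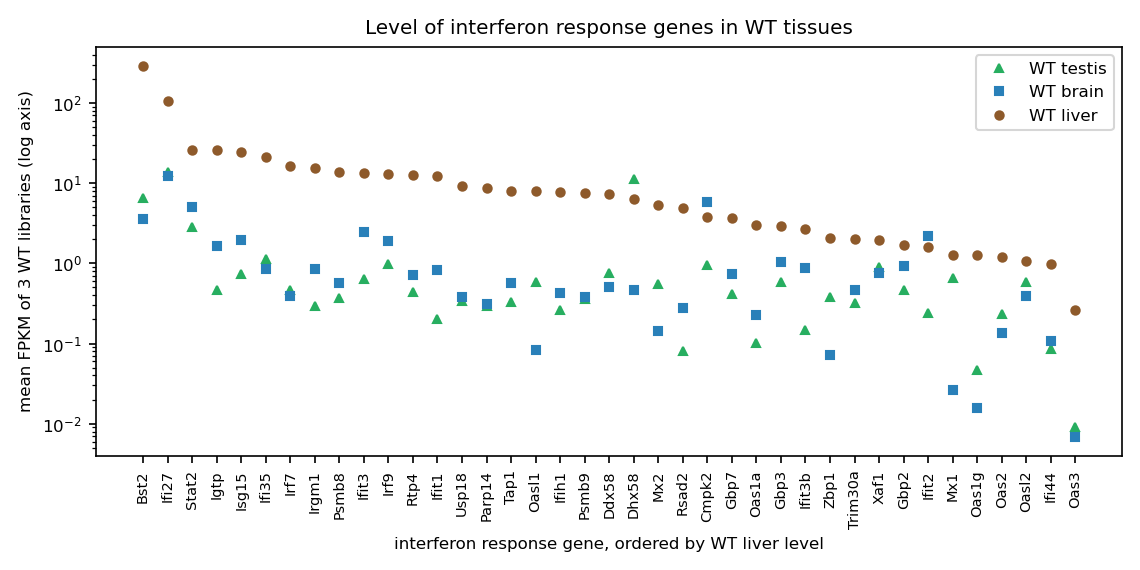
Mean FPKM of 3 WT libraries per gene (vertical log axis) in testis, brain and liver, with genes ordered from left to right by WT liver level. Liver points lie above the others for 36 of 39 genes; Dhx58 is highest in testis, and Cmpk2 and Ifit2 in brain.

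In KO liver no interferon response gene rose or fell: 0 of 39 tested genes passed in either direction, where 0.0212% of the 14124 genes tested rose and 0.0% fell. Stat2 was the 1 gene with an unadjusted p under 0.05, and voom also called 0 members in each of the 3 tissues. Fold changes of the 39 ran from -0.49 to 0.50 with a median of 0.02, against 0.000735 over all genes tested, with 22 genes higher in KO and 17 lower. The genes that rose in KO liver at the same threshold were Mael, Slc25a31 and Syce1, all from the germ cell list. Mael, needed to silence transposons in male germ cells, had 18.8, 8.82 and 17.5 FPKM in the KO livers and was at 0 in each WT liver (adjusted p = 0.000639).

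The factors that carry the interferon signal were close to their WT levels in KO liver, and Stat2 was a little lower. Stat2 measured 20.4, 22.4 and 22.1 FPKM in KO livers, against 26.1, 25.5 and 26.6 FPKM in WT livers. Every KO value lay below every WT value, and the log2 fold change was -0.27 ± 0.08 (SE, limma adjusted p = 0.86). Irf9, its partner in ISGF3, measured 12.5, 12.8 and 11.9 FPKM in KO livers, against 13.8, 12.7 and 12.2 in WT livers, a change of -0.06 ± 0.09. Irf7, the factor that amplifies interferon production and is itself induced, measured 17.8, 11.5 and 17.2 FPKM in KO livers, against 13.1, 12.01 and 23.7 in WT livers. The groups of Irf9 and Irf7 overlapped, and the highest Irf7 value of the 6 belonged to WT 3. Isg15, a ubiquitin-like protein that is conjugated to other proteins, measured 20.1, 21.1 and 27.5 FPKM in KO livers, against 18.4, 24.6 and 31.0 in WT livers. Usp18, the protease that removes Isg15 and restrains the receptor, averaged 9.22 ± 1.32 FPKM in KO livers and 9.25 ± 2.21 in WT livers (SD, n = 3 each). For Isg15 and Usp18 the KO values fell within the range of the WT values.

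No antiviral effector passed the test in KO liver. Ifit1, which binds viral RNA caps, measured 9.23, 14.4 and 11.5 FPKM in KO livers, against 9.53, 13.5 and 13.6 in WT livers. Bst2, the most abundant of the 39, measured 316, 293 and 310 FPKM in KO livers, against 292, 267 and 316 in WT livers, and its change was 0.07 ± 0.09 with a 95% interval from -0.14 to 0.28. That interval is narrow, and Bst2 was read by more fragments than any other member. Ifi27, second in level, averaged 82.2 ± 11.5 FPKM in KO livers and 105 ± 20.8 in WT livers, a change of -0.34 ± 0.17 (adjusted p = 1.00 in limma). Among the OAS enzymes, which make the activator of RNase L, Oas1a had 1.77, 1.92 and 2.42 FPKM in KO livers, against 1.92, 3.23 and 3.81 in WT livers (-0.49 ± 0.26), and Oasl1, which dampens Irf7 translation, had a change of -0.41 ± 0.31, which was -0.72 without KO 4 and -0.20 without WT 2. Oas1a and Oas1g are close paralogs, and how reads that match more than 1 gene were counted is not given in the sources used here. Mx2, annotated as a polymorphic pseudogene, was the other gene besides Stat2 with every KO liver value below every WT value; over all genes 4.58% had that order, and no member had the opposite order, which 4.94% had.

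Gbp2, one of the guanylate-binding proteins, GTPases that attack the vacuoles of intracellular pathogens, had the largest positive value in KO liver. It measured 1.23, 3.59 and 3.22 FPKM in KO livers, against 1.41, 1.92 and 1.79 in WT livers, a change of 0.50 ± 0.38 (limma adjusted p = 1.00). KO 5 and KO 6 were above all WT livers and KO 4 below them. The change was 0.97 without KO 4, 0.23 without KO 5 and 0.31 without KO 6. Gbp3 measured 2.66, 4.38 and 4.28 FPKM in KO livers, against 2.06, 2.34 and 4.38 in WT livers (0.40 ± 0.32). Zbp1, a sensor of left-handed nucleic acid that can trigger cell death, measured 2.66, 2.10 and 3.57 FPKM in KO livers, against 1.99, 1.46 and 2.72 in WT livers (0.43 ± 0.27). Macrophage markers, like Gbp2 and Gbp3, were lowest in KO 4 among KO livers and in WT 1 among WT livers, summing to 137, 219 and 246 FPKM in KO livers and 112, 183 and 266 in WT livers; their part in the values was not tested. Igtp (25.9 ± 2.98 against 25.6 ± 7.93 FPKM, KO and WT) and Irgm1 (15.0 ± 1.44 against 15.3 ± 0.93), the immunity-related GTPases, differed by far less than their spread. Psmb8, Psmb9 and Tap1, which cut and carry peptides for MHC class I, changed by 0.10, 0.02 and -0.14.

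In KO brain 0 of the 34 tested genes rose or fell, where 0.067% of 17922 genes rose and 0.0167% fell, and 0 had an unadjusted p under 0.05. The median fold change was -0.06, against 0.00725 over all genes, with 14 genes higher in KO and 20 lower. Not tested for want of reads were Oasl1, Oas1g, Oas3, Mx1 and Zbp1, with 3 to 21 reads summed over the 3 libraries of a genotype. Mael in the same KO brains measured 10.4, 6.11 and 10.5 FPKM, against 0.0624, 0 and 0.211 in WT brains.

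Among the signalling genes of the brain, Stat2 measured 4.88, 5.29 and 5.72 FPKM in KO, against 5.09, 4.92 and 4.97 in WT, a change of 0.08 ± 0.07. Irf9 measured 2.14, 2.01 and 2.33 FPKM in KO brains, against 1.73, 2.04 and 1.94 in WT brains, a change of 0.17 ± 0.11. The groups overlapped for Stat2 and Irf9. Irf7 averaged 0.497 ± 0.140 FPKM in KO brains and 0.393 ± 0.083 in WT brains, and Isg15 1.83 ± 0.28 and 1.97 ± 0.35 (SD, n = 3 each). Usp18 was at 0.445, 0.105 and 0.280 FPKM in KO brains, against 0.232, 0.475 and 0.433 in WT brains, its values resting on 60 reads in KO and 87 in WT.

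Effector genes of the brain did not pass the test either. Ifit1 averaged 0.778 ± 0.110 FPKM in KO brains and 0.828 ± 0.070 in WT brains, Bst2 3.97 ± 0.59 and 3.59 ± 0.77, and Cmpk2 5.67 ± 0.51 and 5.76 ± 0.31. Ifi27, the highest of the 39 in brain, averaged 12.9 ± 1.69 FPKM in KO and 12.4 ± 0.86 in WT. The largest changes among genes above 1 FPKM were those of Igtp and Ifi35. Igtp measured 0.891, 1.45 and 1.27 FPKM in KO brains, against 1.43, 0.893 and 2.66 in WT brains (-0.33 ± 0.36), and Gbp3 0.846, 0.856 and 0.978 against 0.772, 0.6996 and 1.61 (-0.10 ± 0.28). For Igtp and Gbp3 the highest value of the 6 was that of WT 3, and without it their changes were 0.06 and 0.25. Ifi35, whose human counterpart binds the interferon-induced protein NMI, measured 1.11, 1.04 and 1.03 FPKM in KO brains, against 0.751, 0.704 and 1.08 in WT brains (0.32 ± 0.17, limma adjusted p = 1.00). Trim30a, a restrainer of inflammatory signalling, was the 1 gene with every KO value below every WT value, where 4.09% of all genes had that order; no gene had the opposite order, which 4.99% of all genes had.

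In KO testis 0 of the 34 tested genes rose or fell, where 0.0% of 22341 genes rose and 0.00448% fell, and Cmpk2 was the 1 gene with an unadjusted p under 0.05. The median fold change was 0.04, against 0.03 over all genes, with 20 higher in KO and 14 lower. Ifit1, Oas1a, Oas1g, Oas3 and Rsad2 had too few reads for the test; Ifit1 had 32 reads in KO testes and 40 in WT testes. Germ cell genes are normally active in this tissue, and Mael averaged 558 ± 56.7 FPKM in KO and 522 ± 13.8 in WT.

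Cmpk2 measured 1.39, 1.40 and 1.34 FPKM in KO testes, against 1.24, 0.923 and 0.688 in WT testes. All KO values lay above all WT values, and the change was 0.53 ± 0.21 (SE, limma adjusted p = 0.871). Mx1, Zbp1 and Trim30a had the same order, so that 4 of 34 genes did, where 7.57% of all genes tested in testis had it. No member had the opposite order, which 4.32% of all genes had. Mx1, an interferon-induced GTPase, averaged 0.762 ± 0.054 FPKM in KO testes and 0.649 ± 0.101 in WT testes, a change of 0.21 ± 0.17.

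Stat2 had the largest negative value in KO testis, at 1.05, 2.88 and 2.46 FPKM, against 2.46, 2.61 and 3.52 in WT testes (-0.51 ± 0.36). KO 4 was the lowest of the 6, and without it the change was -0.09. Dhx58 measured 12.5, 11.6 and 12.1 FPKM in KO testes, against 11.3, 11.9 and 10.1 in WT testes, a change of 0.13 ± 0.10 with a 95% interval from -0.10 to 0.35. Bst2 measured 5.43, 6.29 and 5.93 FPKM in KO testes, against 4.79, 4.47 and 10.1 in WT testes, and Ifi27 11.1, 10.6 and 12.7 against 11.0, 11.6 and 18.9. For Bst2 and Ifi27 the highest value came from WT 3. Irf7, Irf9 and Usp18 averaged 0.504 ± 0.183, 0.901 ± 0.186 and 0.426 ± 0.038 FPKM in KO testes, and 0.465 ± 0.230, 0.976 ± 0.239 and 0.338 ± 0.102 in WT testes, in the same order of genes. Xaf1, a protein that promotes cell death, averaged 1.02 ± 0.03 FPKM in KO testes and 0.898 ± 0.188 in WT testes. Isg15 rested on 41 reads in each genotype, with 1.501 FPKM in KO 6 and 1.41 in WT 3 against 0.275 to 0.513 in the other 4 libraries, and its 95% interval ran from -1.52 to 1.495.

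**Figure D3:**
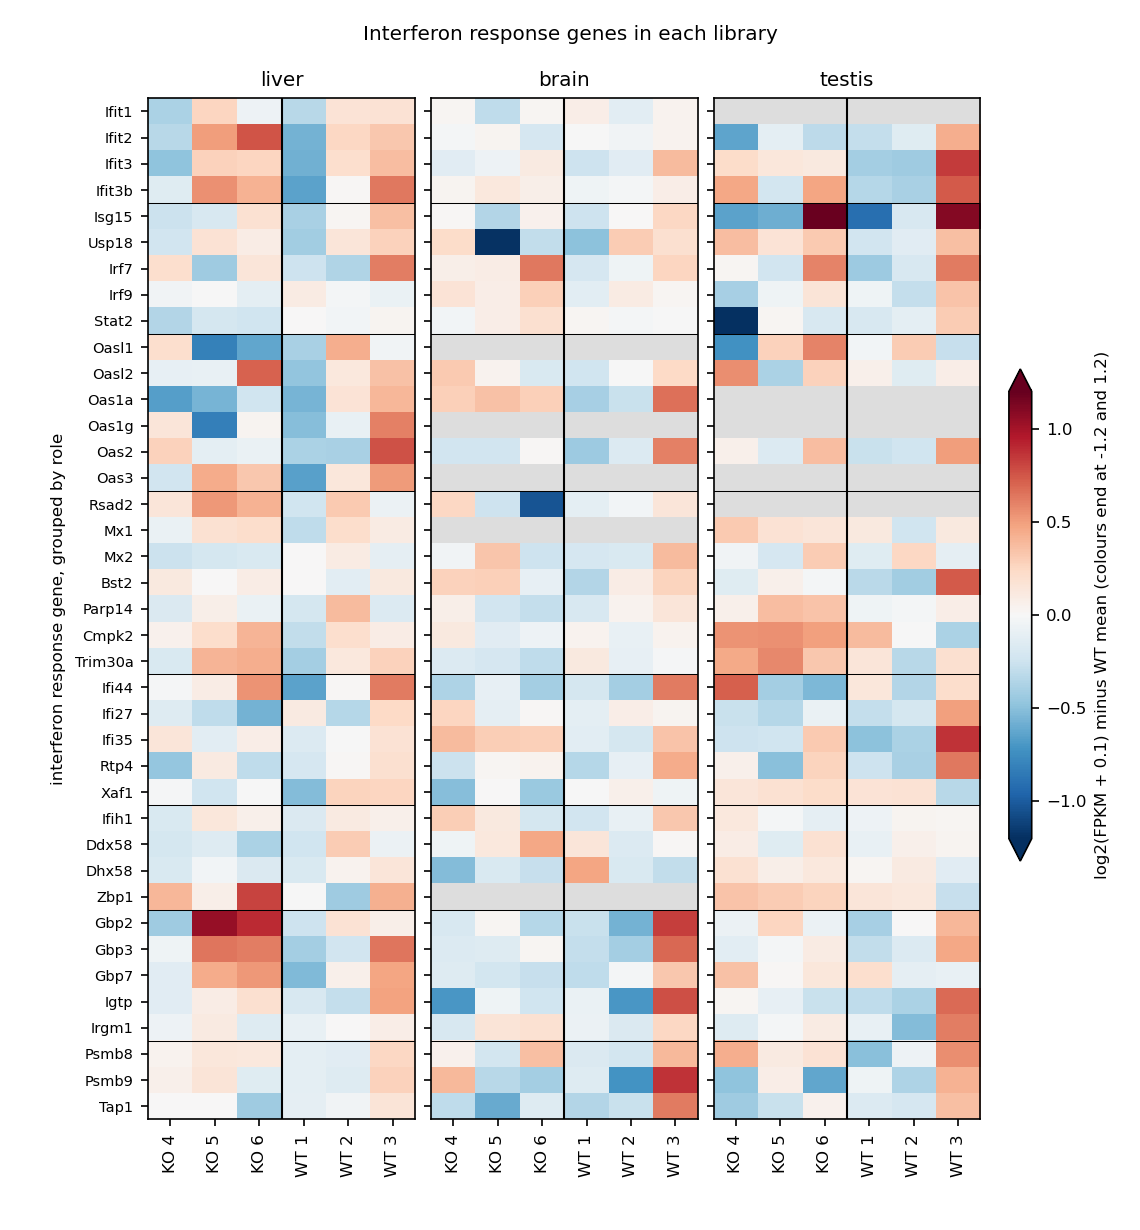
Log2(FPKM + 0.1) of each gene (rows, grouped by role) minus the WT mean of its tissue, in every KO and WT library; red is above and blue below the WT mean, and grey marks genes with too few reads to test. The WT 3 column is the reddest of each panel, and the KO columns show no common shift across the genes.

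The fits set a limit on the size of change that was not seen. The upper 95% bound lay under 1 on the log2 scale for 33 of 39 genes in liver, 34 of 34 in brain and 31 of 34 in testis. A bound of 1 is a doubling of the FPKM plus the constant added before the log, not of the FPKM itself. For genes with low levels, as most are in brain and testis, it allows more than a doubling of the FPKM. The highest bounds were 1.41 for Gbp2 in liver, 0.97 for Oas1a in brain and 1.495 for Isg15 in testis. These are limits for tested genes at these depths; a smaller rise, or a rise in a few cells of a tissue, was not detectable.

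**Figure D4:**
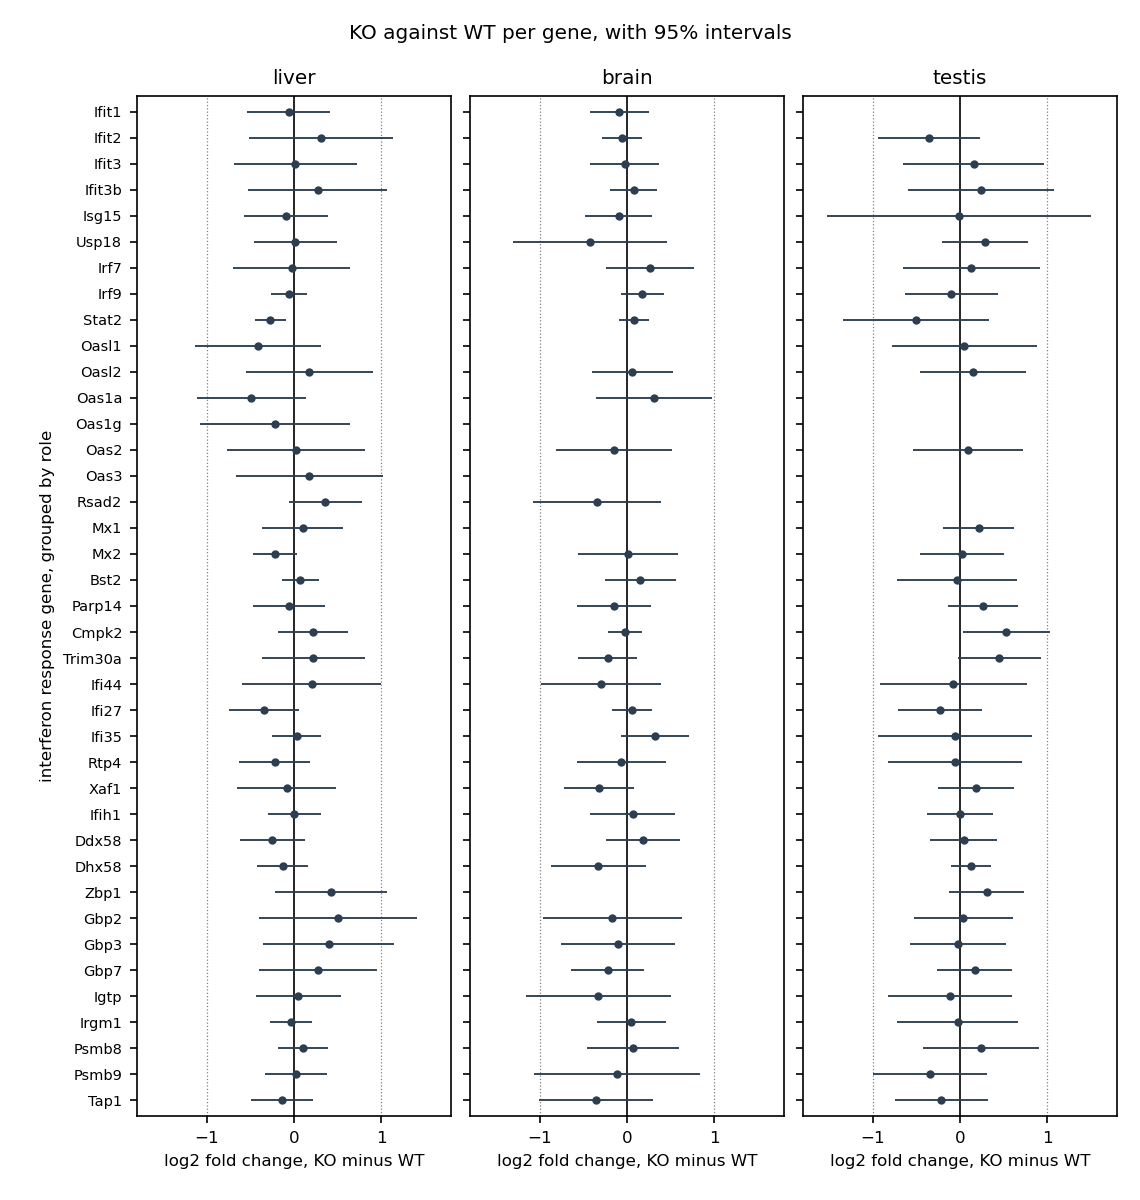
Log2 fold change, KO minus WT, of each gene with its 95% interval from limma in liver, brain and testis. Dotted lines mark a halving and a doubling of the FPKM plus the added constant, and genes without a point had too few reads. Most intervals include 0 and end before the right dotted line, which 6 genes in liver, 0 in brain and 3 in testis cross.

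Libraries of the same genotype differed in the average level of the 39 genes. Averaged over the tested members, the level relative to the WT mean was -0.107, 0.0598 and 0.115 in KO livers 4 to 6, and -0.291, 0.0348 and 0.256 in WT livers 1 to 3. In brain it was -0.0248, -0.0806 and -0.072 in KO, against -0.151, -0.141 and 0.292 in WT. In testis it was -0.00508, -0.0198 and 0.159 in KO, against -0.155, -0.157 and 0.312 in WT. In every tissue the KO values lay inside the range of the WT values, and WT 3 was the highest library. WT 3 held the highest value of the 6 for 20 of 39 genes in liver, 18 of 34 in brain and 18 of 34 in testis, where it did so for 15.2%, 17.6% and 26.2% of all genes tested in the same order of tissues. Testis WT 3 stood apart over all genes too, with the lowest value of the 6 for 36.5% of them and for 4 of 34 members. Its male germ cell markers summed to 14800 FPKM against 17200 to 24400 in the other 5, and its Sertoli and Leydig markers to 801 against 479 to 639. Without WT 3 the median fold change of the members was 0.15 in liver, 0.13 in brain and 0.22 in testis, and 0 genes were called. Since WT 3 was singled out for its high member values, a shift in this direction follows from the choice. Some marker sums were also highest in WT 3: erythroid markers summed to 141 FPKM in testis WT 3 against 20.9 to 34.5 in the other 5, hepatocyte markers to 14.7 FPKM in brain WT 3 against 0.28 to 8.77, and macrophage markers to 266 FPKM in liver WT 3 against 112 to 246. The same sets were not highest in every WT 3. Erythroid markers summed to 179 FPKM in brain WT 3 against 298 to 515 in the other 5, and to 897 in liver WT 3 against 981 in KO 5. Macrophage markers summed to 16.9 FPKM in testis WT 3 against 16.5 to 19.9 in the other 5. The part of these markers in the member levels was not tested. The labels do not say whether WT 3 of the 3 tissues came from the same mouse.

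**Figure D5:**
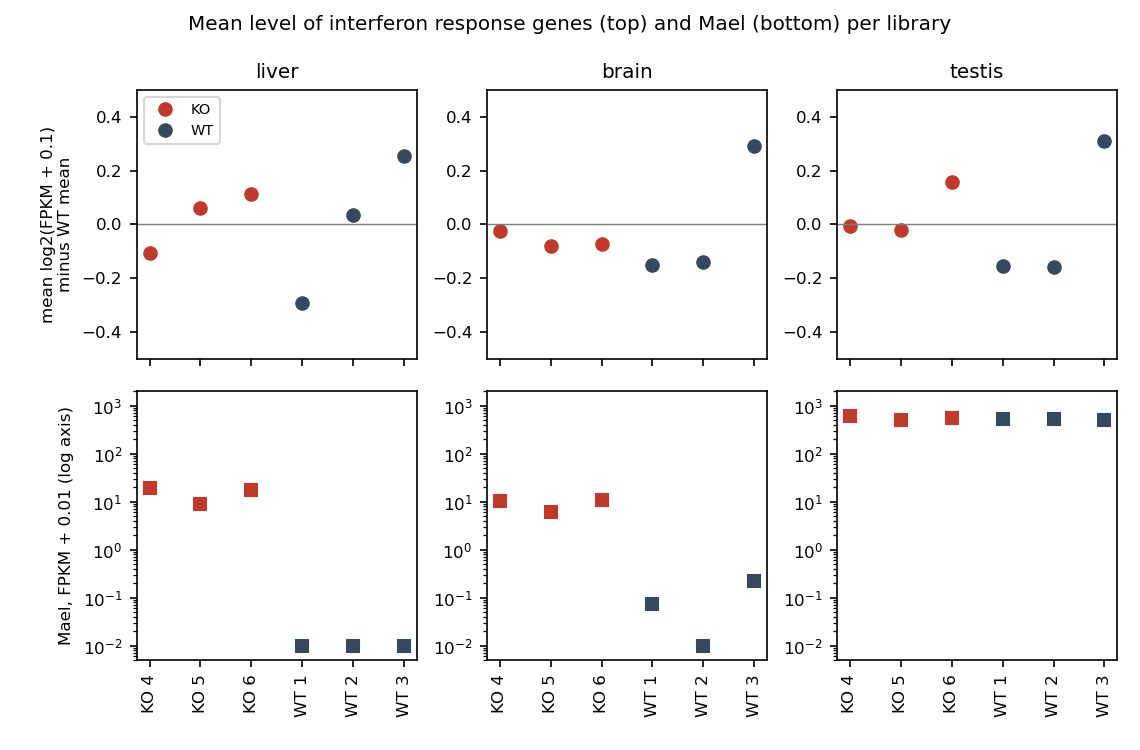
Top: mean over the tested interferon response genes of log2(FPKM + 0.1) minus the WT mean, per KO and WT library of each tissue. Bottom: FPKM of Mael plus 0.01 on a log axis in the same libraries. Mael separates KO from WT in liver and brain, while the interferon response genes overlap and are highest in WT 3.

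No difference between tissues in the KO effect passed the test for any of the 39 genes. In limma fits of tissue by genotype, 0 of 34 genes passed for brain minus liver (0.0% of 12922 genes did), 0 of 34 for testis minus liver (0.0457% of 13133) and 0 of 31 for testis minus brain (0.0626% of 15962). At an unadjusted p under 0.05 there were 1, 0 and 2. Stat2 had the smallest p between brain and liver, with a difference of 0.35 ± 0.10 (limma adjusted p = 0.686), its KO change being 0.08 in brain and -0.27 in liver.

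Few reads were counted for the interferon genes themselves. Of 21 interferon ligand genes 9 had no read in any of the 18 libraries, and the list gathered 121 reads in all: 8 in KO livers and 6 in WT livers, 1 in KO brains and 4 in WT brains, and 51 in KO testes and 51 in WT testes. Ifnb1, the first type I interferon made after sensing, had 0 reads, which allows up to 3 in each library. Ifng, the type II interferon, had 2 reads in KO livers and 0 in WT livers, 1 and 0 in brain, and 4 and 0 in testis. Most of the testis reads were from Ifnab (23 in KO and 15 in WT) and the type III gene Ifnl3 (11 in KO and 16 in WT). No ligand passed the read filter. Many of the ligands are Ifna genes of the same family, so the limit on reads that match more than 1 gene applies to their counts.

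No receptor or signalling gene passed the test. Of the 17 receptor and JAK-STAT genes, 16 were tested in liver, 16 in brain and 17 in testis, and 0 were called. The sensors and adaptors upstream of interferon (16 genes) and the genes that clear nucleic acids (10 genes) had 0 calls in each tissue as well. Smallest in p among the sensors was Tmem173 (STING) in liver, at 1.23 ± 0.41 FPKM in KO and 0.786 ± 0.293 in WT, and Mavs, the adaptor of RIG-I, in brain, at 2.33 ± 0.10 in KO and 1.93 ± 0.34 in WT.

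A wider list of 46 interferon-stimulated genes also had 0 calls in each tissue, with 46 tested in liver, 35 in brain and 36 in testis, and 4, 1 and 2 genes at an unadjusted p under 0.05. Apol9a, an interferon-induced apolipoprotein L, measured 32.5, 37.6 and 31.3 FPKM in KO livers, against 57.3, 48.5 and 92.0 in WT livers. All KO values were below all WT values, an order that 4.58% of all genes tested in liver had. The change was -0.91 ± 0.23 (limma adjusted p = 0.686). Apol9a and Apol9b are close paralogs, so the same limit on reads that match more than 1 gene applies. Nmi, whose human counterpart binds IFI35, measured 1.14, 1.21 and 1.06 FPKM in KO brains, against 0.774, 0.884 and 0.8601 in WT brains (0.40 ± 0.12, limma adjusted p = 0.919).

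Beside the germ cell genes and Pcgf6, the smallest p in the liver lists was that of a chemokine induced by interferon gamma. Cxcl9, which attracts T cells, measured 4.96, 7.40 and 6.99 FPKM in KO livers, against 2.90, 3.01 and 4.38 in WT livers. Every KO liver was above every WT liver, an order that 4.94% of all genes tested in liver had. The change of 0.90 ± 0.22 did not pass (limma adjusted p = 0.662). Cxcl10, a ligand of the same receptor, averaged 3.17 ± 0.69 FPKM in KO livers and 2.45 ± 0.10 in WT livers. Of the 4 chemokines tested in liver, all 4 were higher in KO and 0 were called. Dendritic cell markers, MHC class II genes among them, moved the same way, summing to 129, 230 and 137 FPKM in KO livers and 81.3, 94.3 and 116 in WT livers. Of the tested markers 6 of 6 were higher in KO liver, 0 were called, and none of the 8 was at 0 in all liver libraries. The same markers summed to 10.7, 10.7 and 10.4 FPKM in KO brains and 7.64, 9.08 and 9.45 in WT brains. Tested markers higher in KO were 5 of 5 in brain and 2 of 6 in testis, and 0 were called. Dendritic cell markers were not alone in liver. Tested markers higher in KO liver were 7 of 7 for microglia, 9 of 10 for macrophages, 3 of 3 for plasmacytoid dendritic cells and 2 of 2 for neutrophils. They were 2 of 7 for endothelium and 1 of 2 for T and NK lymphocytes, and 0 were called in each set. In bulk tissue, more cells of a type and more RNA of these genes per cell cannot be told apart. The part of any of these markers in the chemokine values was not tested. In MHC class I genes, 10 of 14 were higher in KO liver, 5 of 14 in KO brain and 2 of 14 in KO testis, and 0 were called in any tissue.

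The genes of smallest p in the remaining lists did not pass adjustment either. In liver they were the receptor chain Ifnar2 (16.7 ± 0.45 FPKM in KO and 15.7 ± 1.10 in WT), the nuclease Dnase2a (4.53 ± 0.41 in KO and 5.19 ± 0.38 in WT) and the proteasome activator Psme2 (41.8 ± 4.11 in KO and 32.2 ± 6.72 in WT). In brain they were the receptor chain Ifngr2 (9.32 ± 0.17 FPKM in KO and 8.70 ± 0.39 in WT), the antiviral protein Zc3hav1 (0.849 ± 0.016 in KO and 0.647 ± 0.048 in WT) and the peptide transporter Tap2 (1.13 ± 0.08 in KO and 1.35 ± 0.16 in WT). In testis they were Ifngr1 (4.03 ± 0.62 FPKM in KO and 5.18 ± 0.73 in WT), the transcription factor Irf3 (15.0 ± 0.39 in KO and 17.6 ± 2.45 in WT) and the RNA editing enzyme Adar (1.64 ± 0.23 in KO and 1.42 ± 0.11 in WT). Trim21, an antibody receptor in the cytosol, averaged 0.321 ± 0.052 FPKM in KO testes and 0.496 ± 0.088 in WT testes, the MHC class I gene H2-K1 30.3 ± 1.47 and 34.6 ± 5.89, and Cxcl9 0.247 ± 0.018 and 0.149 ± 0.062 (SD, n = 3 each). The KO and WT values did not overlap for Ifngr2, Zc3hav1, Tap2, Irf3, Trim21 and testis Cxcl9, and overlapped for the others in this paragraph. Genes picked for the smallest p of a list are more likely not to overlap. Over all genes tested, every KO value was above every WT value for 4.99% in brain and 7.57% in testis, and below for 4.09% and 4.32%. The germ cell list was chosen with earlier results of these data known. On it, 5 of 10 tested genes rose in KO brain (Mael, Slc25a31, Syce1, Henmt1 and Rbm46) and 3 of 7 in KO liver. Over all genes tested, 0.067% rose in KO brain and 0.0212% in KO liver.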

How the data were processed

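The authors deposited FPKM per gene for each of 18 libraries. Per the submitters' processing notes the tools were HISAT2 2.0.5, featureCounts 1.5.0-p3 and DESeq2 1.16.1 with the build mm10; per the labels' protocols the kit was a poly-A kit for 3 μg of RNA. Reads per gene were recovered, since each library's values times gene length came in whole steps (tolerance 0.01 reads). The library sizes behind the FPKM matched median-of-ratios factors over 14876 genes with a read in all libraries.

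Tests used limma 3.58.1 in R 4.3.3 with a mean-variance trend on log2(FPKM + 0.1), fitted over all genes of a tissue with at least 10 reads in at least 3 libraries; differences between tissues used 12 libraries and WT tissues 9. Limma was tested on simulated data, in which the noise followed the same preset curve of the mean read count for all genes. That curve was not fitted to the spread of these libraries, so the simulation does not show how limma performs at that spread. Python 3.11.15, numpy 2.4.6, pandas 2.3.3 and matplotlib 3.10.9 served elsewhere. Positions and overlaps are from GENCODE release M21, sequences from RefSeq GRCm38.p6. Depth was 18990130 to 23529098 reads; intervals cover these libraries only.

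Members and lists were chosen with earlier results of these data known. Named genes are all called members, the 5 largest changes at 1 FPKM or more, the 3 highest WT levels, and Irf7, Irf9, Stat2, Isg15, Usp18, Ifit1 and Bst2 per tissue, with genes called or of smallest p from other lists; others named were chosen after their values were seen. The kit is not stated to keep strand: 15 of the 39 genes overlap another gene, 12 of them on the opposite strand, among them Irf7 with Phrf1 and Psmb9 with Tap1, so their reads cannot be told apart fully. Irf9 shares its strand with Rnf31 and Igtp with Irgm2. Libraries of a group differed beyond sampling noise (chi-square of 3.86 to 56.6 per gene over 18 pairs), and each was counted as its own sample. Such spread does not show that the libraries came from different animals. Between KO and WT livers of the same file number, deviations from the group mean correlated at 0.162 to 0.354 in all 3 pairs. In brain 1 of 3 and in testis 0 of 3 exceeded 0.1. Across tissues, libraries of the same number correlated at 0.118 to 0.228 for testis with liver, 6 of 6 over 0.1. For brain with liver and testis with brain 4 of 6 were over 0.1. Values for unlike numbers are not given here, so these correlations do not show that the numbers pair libraries.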

Additional observations from a re-analysis of the deposited data

Results flagged for a closer look

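Trim30a was picked out because every KO testis lay above every WT testis while every KO brain lay below every WT brain. It measured 0.462, 0.512 and 0.414 FPKM in KO testes, against 0.354, 0.227 and 0.368 in WT testes, a log2 change of 0.45 ± 0.20 (SE). In brain it measured 0.409, 0.393 and 0.361 FPKM in KO, against 0.517, 0.430 and 0.463 in WT, a change of -0.22 ± 0.14. The difference between testis and brain was 0.67 ± 0.23 (limma adjusted p = 0.928 over 15962 genes), so it did not pass the test.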

How the results depend on the processing

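No interferon response gene was called between KO and WT in any tissue under any setting run: other pseudocounts, no read filter, TPM scaling, voom with library totals, 1 fit over 18 libraries, the replicate block and leaving out each library. Between tissues, the KO effect was rerun with a pseudocount of 1, TPM, the replicate block and 1 fit over 18 libraries, and no member was called. The smallest adjusted p of a member over 15 settings was 0.527 in liver, 0.895 in brain and 0.357 in testis. With the file number as a replicate block, the smallest adjusted p was 0.527 in liver, 0.965 in brain and 0.918 in testis, and the block changed no call of a member between KO and WT. Leaving out 1 library gave a median change of the members between -0.12 and 0.15 in liver, -0.10 and 0.13 in brain, and -0.05 and 0.22 in testis; the cause was not tested.

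Signs of small changes were not stable. Usp18 in liver was -0.0354 with TPM and -0.0211 with voom, against 0.0149. Without 1 library, signs turned in liver for Ifit1 (-0.23 to 0.10), Irf7 (-0.21 to 0.28), Isg15 (-0.28 to 0.0907) and Usp18 (-0.19 to 0.15). In brain they turned for Bst2 (-0.0213 to 0.28), Cmpk2 (-0.0947 to 0.0287), Gbp3 (-0.30 to 0.25), Ifi27 (-0.0474 to 0.13), Ifit1 (-0.15 to 0.0229), Igtp (-0.68 to 0.0588) and Isg15 (-0.22 to 0.0292). In testis they turned for Bst2 (-0.24 to 0.34), Ifi27 (-0.37 to 0.0142), Irf7 (-0.10 to 0.44), Irf9 (-0.24 to 0.0703) and Isg15 (-0.61 to 0.54). Other values moved with 1 library while keeping their sign: in liver Oas1a (-0.77 to -0.29), Gbp3 (0.19 to 0.72), Zbp1 (0.21 to 0.64) and Ifi27 (-0.51 to -0.22), in brain Ifi35 (0.21 to 0.49), and in testis Cmpk2 (0.34 to 0.72).

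Between WT tissues, TPM called 2 genes higher in brain than in liver instead of 1, 29 lower instead of 37, 34 lower in testis than in liver instead of 38, and 5 higher and 21 lower in testis than in brain instead of 7 and 13. With the library number as a replicate block, 9 were higher and 18 lower in testis than in brain, and the counts against liver did not move. Leaving out a library gave 0 to 1 genes higher in brain than in liver, with 0 without liver WT 1, brain WT 1 or brain WT 3. Low reads limit Isg15 and Usp18 in brain and testis.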
